A study of Arabidopsis thaliana with 12 samples.

Results

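Etiolated growth was examined in Arabidopsis thaliana seedlings (ecotype Columbia) that carried an empty transformation vector. The comparison set 3 arrays of dark-grown vector seedlings against 3 arrays of light-grown vector seedlings, and these 6 arrays were taken from a series of 12. They are the arrays whose labels give the vector control in either growth condition. Each condition held vector lines 1, 4 and 7, so that the dark and the light array of a line formed a pair. The other 6 arrays held seedlings that overexpress MIF1, a mini zinc finger protein, under the 35S promoter (MIF1OE), grown the same way (3 in darkness, 3 in light). They entered the fit to estimate the spread, and served at the end to show where the vector response differed.

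All seedlings were 7 days old and of the T2 generation, grown at 22 °C after 2 days of stratification on medium with 50 µg/mL hygromycin, on which resistant plants were collected. Dark-grown seedlings received 2 h of light for germination and then none, and light-grown seedlings had days of 16 h light and 8 h darkness. RNA came from harvested seedlings, and each vector line derives from a transformant of its own. The MIF1OE seedlings were of line 124 in the replicates numbered 1 and 2, and of line 127 in the replicate numbered 3. The series describes the samples of a group as biological replicates.

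A seedling that germinates in darkness lengthens its hypocotyl, keeps its cotyledons closed over an apical hook and builds etioplasts instead of chloroplasts. It lives on the oil, protein and sugar stored in the seed. Light acts through phytochromes and cryptochromes, which remove phytochrome-interacting factors and the COP1 complex from control of transcription, so that leaf expansion and photosynthesis begin. In whole seedlings, fewer cells of a type and less RNA per cell cannot be told apart.

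Values are array intensities in arbitrary units as the authors scaled them, given in the order of lines 1, 4 and 7. Differences are dark minus light on the scale log2(intensity + 7), on which 1 is a 2-fold change, and changes of dim genes are understated. A gene was called when its adjusted p (limma, Benjamini-Hochberg over 15922 probe sets) was under 0.05. SE is limma's moderated standard error, n is 3 lines for vector seedlings (3 samples of 2 lines for MIF1OE), and "rose" and "fell" are used of called genes alone. Each call of dark against light in vector seedlings named below held in all of the 13 alternative settings in which the gene was tested, unless a setting is named.

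The response was broad. Of 15922 probe sets, 5873 (36.9%) were called: 3249 were higher in darkness (20.4%) and 2624 lower (16.5%). At least 2-fold differences among these numbered 1214 higher (7.62%) and 1237 lower (7.77%), and 4-fold ones 190 higher and 220 lower. With arrays centred on their medians the balance turned, to 2691 higher and 3053 lower. The count of calls was 3172 without line 4 and 3903 without line 7, each of which leaves 2 pairs. In 5854 of the 5873 called probe sets the sign was shared by all 3 lines, which the call itself favours, since the fit pairs the lines. Dark and light values did not overlap in 6934 probe sets (43.5%), with darkness higher in 24.5% of all probe sets and lower in 19.1%. The median difference over all probe sets tested was 0.06. Of the called probe sets 3057 name 1 gene in the tables used here, and most of those carry a locus code alone, so the gene groups below cover a limited share of each pathway. Counts of rises and falls in each gene group are to be read beside 20.4% higher and 16.5% lower of all probe sets.

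Dark arrays were more alike than light arrays. Pairwise correlations ran from 0.955 to 0.96 among the dark vector arrays and from 0.922 to 0.943 among the light vector arrays, and from 0.777 to 0.865 between a dark and a light array. Line 1 had the smaller response, with 2218 probe sets at least 2-fold apart, against 3366 in line 4 and 3291 in line 7. The differences of line 1 correlated with those of line 4 at 0.773 and with those of line 7 at 0.692, and lines 4 and 7 correlated at 0.773 (Pearson, across probe sets that share a scaling, which are not independent replicates).

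The photosynthetic apparatus was lower in darkness. Of 15 measured members of the light harvesting and photosystem list, 12 fell and none rose, with a median difference of -1.24. PSAN, a lumenal subunit of photosystem I, read 1004, 319 and 976 in dark seedlings and 3097, 2326 and 2425 in light seedlings, so the groups did not overlap. It fell by 1.92 on the log2 scale (SE 0.35, limma adjusted p = 0.00489). The photosystem II subunits PSBY and PSBW fell by 1.63 (SE 0.25) and 1.52 (SE 0.25). AT4G01150 and AT1G52220, listed as the thylakoid curvature proteins CURT1A and CURT1C that bend grana margins, fell by 1.58 (SE 0.25) and 1.78 (SE 0.29). LHCB4.2, a minor antenna protein of photosystem II, was not called: it read 2584, 1455 and 2033 in darkness and 3949, 1464 and 1604 in light, and its groups overlapped.

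Electron transport followed the same direction, with 8 of 10 members falling and none rising (median -1.23). The largest falls were those of NdhL and NdhN, subunits of the plastid NADH dehydrogenase-like complex that carries cyclic electron flow around photosystem I. NdhL read 176, 90.8 and 90.0 in darkness and 492, 635 and 652 in light, a difference of -2.31 (SE 0.30, limma adjusted p = 0.00158), and NdhN differed by -2.14 (SE 0.37). Every dark value of both genes lay below every light value. CRR42 and CRR41, which act in the assembly of that complex, fell by 2.08 (SE 0.31) and 1.60 (SE 0.16). ATPC1, the gamma subunit of the plastid ATP synthase, fell by 1.44 (SE 0.22).

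All 4 measured genes of carbon fixation and photorespiration fell. SBPASE, sedoheptulose-bisphosphatase of the Calvin cycle, read 663, 281 and 459 in dark seedlings and 2051, 1584 and 2220 in light seedlings and fell by 2.11 (SE 0.21, 4.33-fold, limma adjusted p = 0.000788). HPR, the peroxisomal hydroxypyruvate reductase of photorespiration, fell by 1.89 (SE 0.19), RCA, rubisco activase, by 1.51 (SE 0.18), and PRK, phosphoribulokinase, by 1.39 (SE 0.24). PRK read 1208, 966 and 1053 in darkness and 2817, 2824 and 2823 in light, with almost no spread between the light arrays.

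In the list of chlorophyll synthesis and breakdown, 7 of 11 members tested fell and none rose (median -0.95). Of the falls, 6 were of synthesis genes, and the other was of NOL, a chlorophyll b reductase of breakdown (-0.95, SE 0.17). CHLI2, a subunit of the magnesium chelatase that commits the pathway to chlorophyll, read 105, 62.5 and 135 in darkness and 357, 291 and 441 in light and fell by 1.82 (SE 0.19, limma adjusted p = 0.000829). Genes of earlier steps fell as well: HEMB1 by 1.31 (SE 0.18), HEME2 by 1.32 (SE 0.22), HEME1 by 1.29 (SE 0.23) and GSA1 by 1.08 (SE 0.18). PORB, the light-dependent protochlorophyllide oxidoreductase that is abundant in etioplasts and persists in green tissue, read 1916, 1562 and 1407 in dark seedlings and 2398, 1475 and 1452 in light seedlings. Its difference of -0.10 (SE 0.25, limma adjusted p = 0.789) was within the spread between lines. HEMA2, a glutamyl-tRNA reductase, also overlapped between the groups (0.06, SE 0.16).

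Further plastid genes were called one by one. Z-ISO, an isomerase of carotenoid synthesis, fell by 1.47 (SE 0.28), and Cpn60beta4, a chaperonin subunit needed for the NADH dehydrogenase-like complex, fell by 1.39 (SE 0.15). Cpn60beta3, a related chaperonin, was not called (0.03, SE 0.21). Among annotated genes chosen for their large change after values were seen, CaS, a thylakoid calcium sensor, read 261, 85.7 and 211 in darkness and 1339, 686 and 1267 in light and fell by 2.59 (SE 0.20). THIC, the plastid enzyme that makes the thiamin pyrimidine, fell by 2.23 (SE 0.35). PIFI, a plastid protein of chlororespiration, fell by 2.15 (SE 0.29), FTSZ2-2, of the plastid division ring, by 1.99 (SE 0.21), and MAP1C, a methionine aminopeptidase, by 2.04 (SE 0.26).

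Transcripts of the plastid genome were on the same side. Of 69 plastid-encoded genes tested, 17 fell and none rose, and all 69 differences were below 0, from -1.54 to -0.02, with a median of -0.43, against -1.24 for the nuclear photosystem list, a gap that was not tested. With quantile normalization 13 fell, and 9 of the 69 differences were above 0, none of them called. Differences above 0 also numbered 9 without line 1 and 4 without line 4, again with none called. The count of 17 was 8 without line 1, 10 without line 4, 8 without line 7, 11 without the pairing of lines and 26 with arrays centred on their medians. psbA, the D1 protein of photosystem II, read 300.4, 491 and 876 in dark seedlings and 974, 1554 and 2144 in light seedlings, and fell by 1.54 (SE 0.23, limma adjusted p = 0.00256). The highest dark value of psbA, in line 7, was below the lowest light value, in line 1, by a small margin. rbcL, the large subunit of rubisco, read 343, 386 and 568 in darkness and 1080, 998 and 1260 in light and fell by 1.38 (SE 0.21). atpB and atpE, subunits of the ATP synthase, were bright in both conditions and not called: atpB read 4181, 4661 and 4525 in darkness and 5880, 6115 and 5511 in light.

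**Figure D1:**
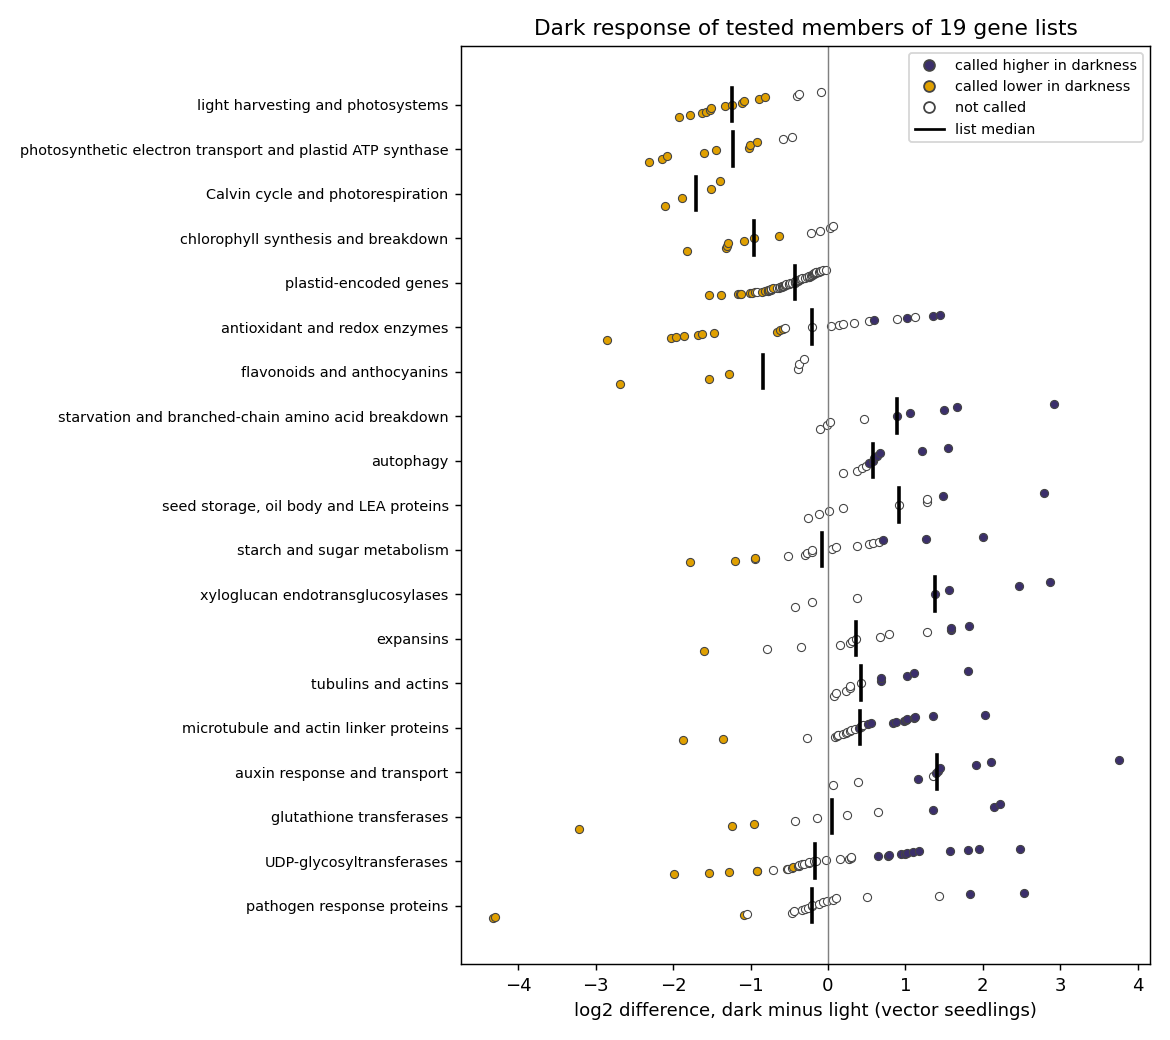
Dark minus light difference (log2 scale) of every tested member of 19 gene lists in vector seedlings, 1 point per gene. Filled points were called (dark colour higher, yellow lower in darkness), open points were not, and the black bar is the list median; the photosystem, electron transport and Calvin cycle lists lie left of 0, and the auxin and autophagy lists right of it.

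Genes that mobilise seed oil were high in darkness in a few instances rather than as a group. ICL, isocitrate lyase of the glyoxylate cycle, through which germinating seeds turn fatty acids into sugar, read 632, 1001 and 791 in dark seedlings and 6.2, 31.8 and 9.52 in light seedlings. Its rise of 5.30 (SE 0.35, limma adjusted p = 0.000365) is set against light values near the bottom of the range in lines 1 and 7, and it was 4.15 with a pseudocount of 32. The groups were far apart. SDP1, the main lipase of seed oil bodies, rose by 0.56 (SE 0.17, limma adjusted p = 0.0362), with overlapping groups. That call ended without line 1, 4 or 7 (adjusted p = 0.0635, 0.0568 and 0.168), without the pairing, with the vector arrays alone and with no filter on dim probe sets. AIM1 of fatty acid beta-oxidation (-0.08, SE 0.12) and PEX4, a peroxisome biogenesis factor (0.33, SE 0.13), were not called.

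OLEO3, an oleosin that coats seed oil bodies, read 319.6, 256 and 78.3 in darkness and 18.3, 25.5 and 20.0 in light and rose by 2.79 (SE 0.43, limma adjusted p = 0.00277), with line 7 well below the other dark arrays. It was among 2 of 9 tested members of the seed storage, oil body and late embryogenesis list that rose, and none fell. The other, AtLEA4-1, was dim (dark 30.3, 32.6 and 16.4, light 2.23, 9.71 and 3.34), and its call (rise of 1.48, SE 0.49, limma adjusted p = 0.0465) ended in 8 of the 13 alternatives, with adjusted p = 0.175, 0.115 and 0.107 without lines 1, 4 and 7. The list held 5 rises with vector arrays alone and 3 with a pseudocount of 1. It held 1 rise without line 1, 4 or 7, with median-centred arrays and with quantile normalization. That count was also 1 with no filter, with the 50th percentile filter, with a pseudocount of 32 and with a floor of 16.

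In the list of starvation and branched-chain amino acid breakdown 5 of 9 members rose and none fell (median 0.89), 4 of them enzymes of amino acid breakdown. MGL, methionine gamma-lyase, which cleaves methionine, read 716, 926 and 635 in dark seedlings and 87.4, 175 and 50.7 in light seedlings. It rose by 2.92 (SE 0.21, 7.59-fold, limma adjusted p = 0.000373), in every line. IVD, isovaleryl-CoA dehydrogenase of leucine breakdown, rose by 1.67 (SE 0.35), MCCA and MCCB, the subunits of methylcrotonyl-CoA carboxylase in the same pathway, by 1.50 (SE 0.34) and 0.89 (SE 0.22), and AKINBETA1, a subunit of the energy-sensing SnRK1 kinase, by 1.06 (SE 0.18). In all 4 of these the light array of line 4 read above those of lines 1 and 7. MCCA read 778, 1360 and 983 in darkness and 155, 775 and 360.2 in light, which shows that pattern. Without line 1 the calls of MCCA (limma adjusted p = 0.0521) and MCCB (0.0712) ended, that of MCCB also without line 4 (0.0648), and the list then held 3 rises. The electron carriers ETFBETA (-0.10, SE 0.19) and ETFQO (0.46, SE 0.17), which take electrons from IVD in mitochondria, were not called.

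Autophagy genes shared a direction. All 11 members tested were above 0, 7 rose, and the median was 0.58. ATG8B and APG8A, ubiquitin-like proteins that coat the growing autophagosome, rose by 1.55 (SE 0.16, limma adjusted p = 0.000791) and 1.22 (SE 0.14). APG8A read 567, 513 and 513 in darkness and 204, 218 and 253 in light, with a small spread on both sides. ATG3, the conjugating enzyme that attaches ATG8 to lipid, rose by 0.67 (SE 0.14). ATG8F rose by 0.60 (SE 0.17) and ATG8C by 0.63 (SE 0.19), but both calls ended without line 1 (limma adjusted p = 0.0814 and 0.142), without line 4 (0.158 and 0.0952) and with median-centred arrays. That of ATG8C ended with vector arrays alone and with no filter as well. The list held 3 rises without line 1 and 4 without line 4 or with median-centred arrays. ATG8D (0.37, SE 0.19) and ATG8E (0.44, SE 0.22) were not called.

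Of 18 starch and sugar genes tested 3 rose and 3 fell (median -0.08), which is near the shares of all probe sets (20.4% higher and 16.5% lower). DPE1, the plastid disproportionating enzyme of starch breakdown, fell by 1.78 (SE 0.16), PWD, the phosphoglucan water dikinase that phosphorylates starch, by 1.20 (SE 0.22), and SBE2.2, a starch branching enzyme, by 0.94 (SE 0.23, ended without line 4, limma adjusted p = 0.0945). Among the rises SWEET3, of the sugar exporter family, read 112, 197 and 116 in dark and 33.4, 37.7 and 19 in light seedlings and rose by 2.0 (SE 0.23, limma adjusted p = 0.00118). cwINV6, a cell wall invertase homologue, rose by 1.26 (SE 0.27, ended without line 7, limma adjusted p = 0.0559). SWEET11, a phloem-loading sucrose exporter, was not called: the dark values were 1470, 4027 and 1677 and the light values 1131, 1513 and 1464, with line 4 far above the other dark arrays.

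**Figure D2:**
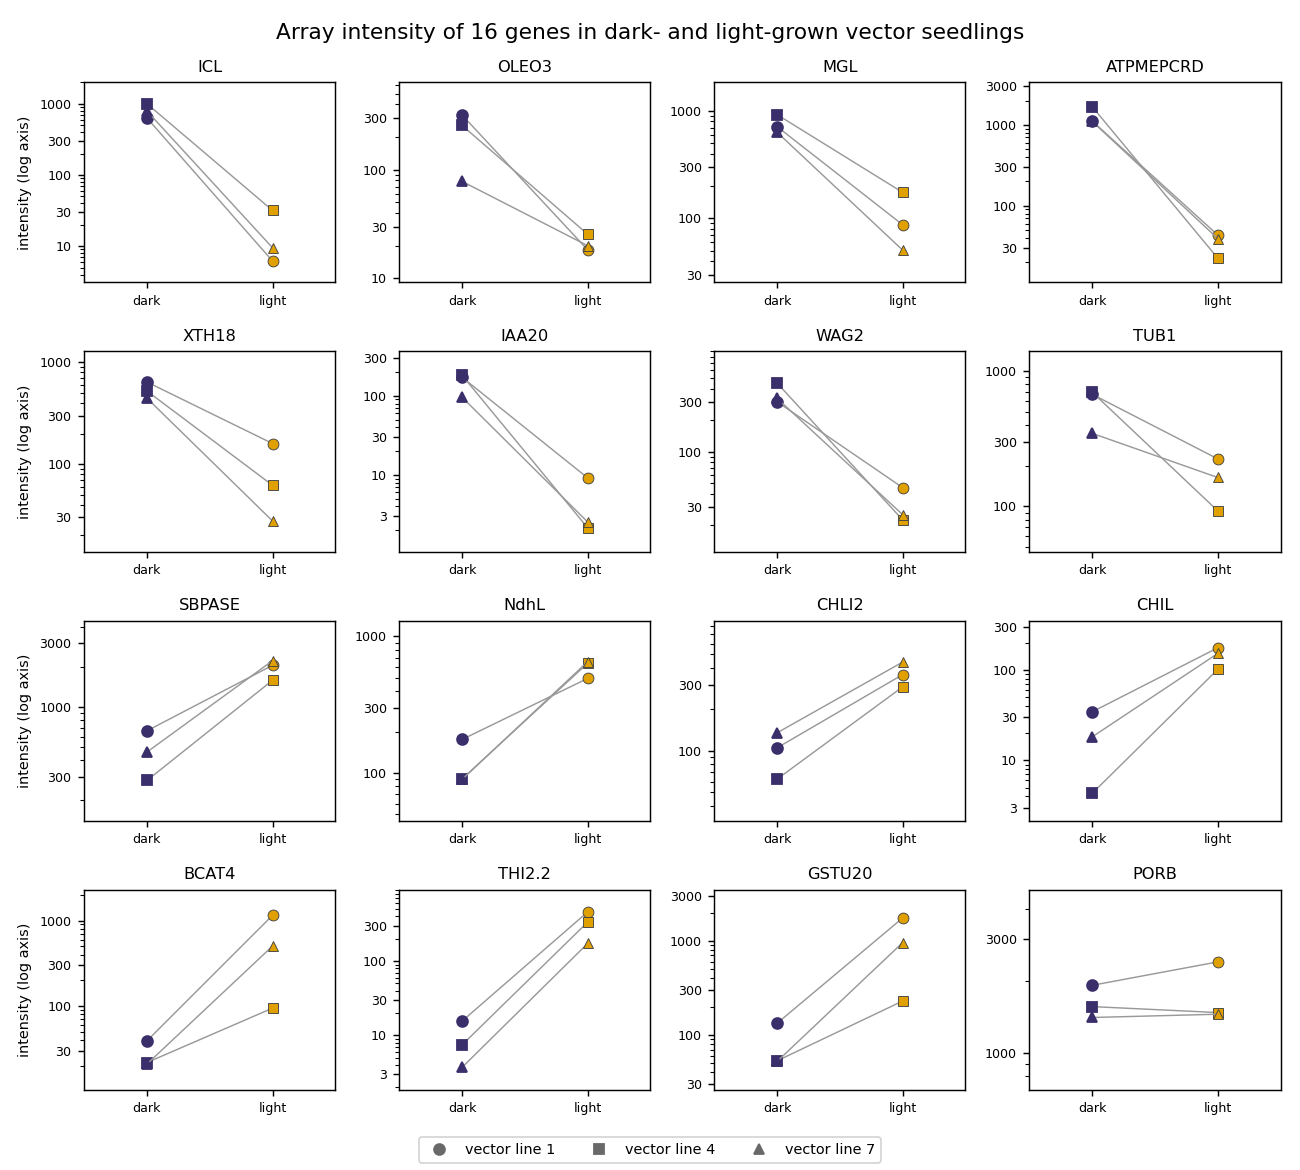
Array intensity (log axis, arbitrary units) of 16 genes in dark-grown (left) and light-grown (right) vector seedlings, with a line joining the arrays of each vector line (circle line 1, square line 4, triangle line 7). The upper 8 genes were higher in darkness in every line, the next 7 lower, and PORB overlapped.

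Wall loosening enzymes were raised in part. Among xyloglucan endotransglucosylases, which cut and rejoin the tethers between cellulose fibrils, 4 of 7 rose and none fell (median 1.38), with 1 fall without line 1. XTH18 read 642, 523 and 445 in dark seedlings and 159.5, 61.9 and 27.6 in light seedlings and rose by 2.87 (SE 0.30, 7.31-fold, limma adjusted p = 0.000882). Its close relative XTH19 read 731, 555 and 416 in darkness and 351, 42.9 and 51 in light, where line 1 was far above the other lines, and rose by 2.47 (SE 0.47). Probe sets of such close relatives can share signal. XTH33 rose by 1.56 (SE 0.22) and XTH20 by 1.38 (SE 0.37), the call of XTH20 ending without line 4 or 7 (limma adjusted p = 0.0542 and 0.119). EXGT-A3 and XTH32, the brighter members among those not called, differed by -0.42 (SE 0.16) and -0.20 (SE 0.21).

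Of 13 expansins, which loosen walls at low pH, 3 rose and 1 fell (median 0.36), and 2 fell with median-centred arrays. The share that rose is near that of all probe sets (20.4%), and the share that fell is below theirs (16.5%). EXLA2 rose by 1.82 (SE 0.37), EXPA9 by 1.59 (SE 0.28) and EXPA4 by 1.59 (SE 0.34, ended without line 4, limma adjusted p = 0.058). The fall was that of EXPA7, an expansin of root hair cells, which read 14.4, 15.5 and 16.4 in dark seedlings and 80.2, 44.7 and 62.9 in light seedlings (-1.60, SE 0.23, limma adjusted p = 0.00221). EXPA18, its partner in root hairs, had a difference of -0.79 (SE 0.29) that was not called.

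Among 5 pectin genes the methylesterase ATPMEPCRD, whose product removes methyl groups from wall pectin, alone rose. It read 1116, 1679 and 1105 in darkness and 43.3, 22.4 and 39.2 in light, a rise of 4.97 (SE 0.26, 31.3-fold, limma adjusted p = 0.000191). The other 4 tested pectin genes were not called, among them PMEAMT (-0.09, SE 0.22). GH9B13, a family 9 glycosyl hydrolase (chosen after values were seen), rose by 2.58 (SE 0.27), and the subtilisin-like protease ATSBT5.2 (likewise chosen) by 2.81 (SE 0.29). In wall polysaccharide synthesis 3 of 10 rose (1 without line 4), namely the xyloglucan synthase genes CSLC04 by 0.95 (SE 0.20, ended without line 4, limma adjusted p = 0.053) and CSLC5 by 0.77 (SE 0.13), and GUT2, of xylan synthesis, by 0.43 (SE 0.13). The GUT2 call ended without line 4 or 7 (adjusted p = 0.122 and 0.133), with vector arrays alone and with median-centred arrays. COB, which orients cellulose deposition, read 657, 883 and 841 in dark and 746, 930.3 and 659 in light seedlings and was not called.

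Microtubule genes leaned higher. All 11 members of the tubulin, actin and associated protein list were above 0 and 5 rose (median 0.42), although TUB9 (0.08, not called) turned below 0 with median-centred arrays and without line 1 or 7. TUB1, a beta-tubulin, read 675, 699.9 and 347 in dark seedlings and 225, 92.8 and 164 in light seedlings and rose by 1.81 (SE 0.32, limma adjusted p = 0.0043). AT3G23090, listed as WDL3, a microtubule-associated protein of hypocotyls, rose by 1.11 (SE 0.20), ATMAP65-6, a bundling protein, by 1.02 (SE 0.16), and TUA1, an alpha-tubulin, by 0.69 (SE 0.13). TUB6 rose by 0.68 (SE 0.18), and leaving out line 1 or 4 ended its call (limma adjusted p = 0.0573 and 0.126). The brightest member, TUA6, was not called, with 2147, 2261 and 2266 in darkness and 1805, 2028 and 1686 in light.

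A wider list of proteins that bind or recruit microtubules or actin (the IQD, TRM and NET families with the associated proteins above) had 13 rises and 2 falls among 28 members, and 7 rises without line 4. There were 9 rises with median-centred arrays, with vector arrays alone or with no filter. Without the pairing, without line 7 or with quantile normalization 10 rose, and with a pseudocount of 32 or an intensity trend 14 rose. TRM28 read 139.6, 114 and 106 in dark seedlings and 22.4, 22.5 and 27 in light seedlings and rose by 2.03 (SE 0.16, limma adjusted p = 0.000397), TRM18 by 1.35 (SE 0.25) and TRM19 by 1.12 (SE 0.19). Both falls were of IQD genes, which encode calmodulin-binding proteins: IQD24 fell by 1.87 (SE 0.23) and iqd21 by 1.35 (SE 0.20).

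Auxin genes were higher in darkness: 7 of 10 tested members rose, none fell and the median was 1.41. Rises numbered 5 with vector arrays alone, without line 7 or with the 50th percentile filter. They numbered 6 without line 4, with no filter or with a pseudocount of 1, and 8 with a pseudocount of 32 or quantile normalization. IAA20, a member of the Aux/IAA repressor family, was near the bottom of the intensity range in light: it read 172, 182 and 96.1 in dark seedlings and 9.19, 2.15 and 2.54 in light seedlings. It rose by 3.76 (SE 0.43, limma adjusted p = 0.0011). GH3.3 and WES1 (GH3.5), enzymes that conjugate auxin to amino acids, rose by 2.10 (SE 0.37) and 1.91 (SE 0.34), and WES1 was narrow in darkness (790.3, 840.0 and 878) and wide in light (421, 222 and 108). LBD16, a transcription factor that auxin induces, rose by 1.45 (SE 0.28) and YUC6, an auxin biosynthesis enzyme, by 1.42 (SE 0.30), whereas YUC2 of the same family was not called (0.07, SE 0.19).

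Further genes of auxin handling stood outside that list. WAG2, a kinase that phosphorylates PIN auxin exporters and acts in the apical hook, read 299, 451 and 322 in darkness and 45.6, 22.5 and 25.2 in light and rose by 3.28 (SE 0.29, limma adjusted p = 0.000625). IAGLU, which attaches glucose to indole-3-acetate (chosen after values were seen), rose by 2.13 (SE 0.23), with 1463, 891 and 665 in dark seedlings and 245, 260.5 and 151 in light seedlings.

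The remaining hormone lists held fewer calls. EIN3, the master transcription factor of ethylene signalling, read 805, 1314 and 1147 in darkness and 454, 576 and 496 in light and rose by 1.07 (SE 0.14, limma adjusted p = 0.00157), as the only rise among 3 ethylene genes tested. GID1B, a gibberellin receptor, rose by 0.98 (SE 0.17) alone among 6 gibberellin genes, and its paralogue GID1A differed by 0.35 (SE 0.17). BRH1, a brassinosteroid-responsive RING protein, rose by 0.84 (SE 0.22) with overlapping groups, and its call ended without the pairing, without line 4 (adjusted p = 0.097) and without line 7 (0.109). In the cytokinin and abscisic acid list 2 of 9 rose and 3 fell, and 1 rose and 1 fell without line 4 or without line 7. The share that rose is near that of all probe sets (20.4%), and the share that fell is above theirs (16.5%). The clear members were the cold-regulated COR15B, which fell by 1.66 (SE 0.21), and RD2, responsive to desiccation, which rose by 0.81 (SE 0.17).

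Among 6 genes of light perception and signalling 2 rose. FHL, which carries phytochrome A into the nucleus, read 82.2, 105 and 67.6 in dark seedlings and 27.3, 31.2 and 16.3 in light seedlings and rose by 1.54 (SE 0.28, limma adjusted p = 0.00544). SPT, a bHLH factor related to the phytochrome-interacting factors, rose by 1.37 (SE 0.20), with 158, 222 and 145 in darkness and 73, 70.7 and 46.7 in light. Neither gene overlapped between the groups. Of 3 clock genes, TIC rose by 0.61 (SE 0.17), but its call ended without line 4 (limma adjusted p = 0.0801), without line 7 (0.118), without the pairing and with vector arrays alone. GI, whose transcript cycles daily, read 374, 533 and 243 in dark seedlings and 366, 449 and 20.0 in light seedlings. The light array of line 7 stood far below the other arrays, and no difference was called (1.16, SE 0.72).

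Several bZIP transcription factors were modestly higher, with 5 of 13 rising and none falling (3 rises without line 4 or 7). BZIP28, a membrane-bound factor of the endoplasmic reticulum stress response, rose by 1.0 (SE 0.15), bZIP52 by 0.83 (SE 0.16) and EEL, a factor of seed maturation, by 0.80 (SE 0.15). BZIP60, which acts in that stress response too, overlapped between the groups (0.09, SE 0.21).

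Regulators of cell cycle and chromatin gave the larger rises of their list while core histones did not. HIS1-3, a linker histone variant induced by drought, read 552, 683 and 706 in darkness and 36.8, 103 and 133 in light and rose by 2.89 (SE 0.27, 7.43-fold, limma adjusted p = 0.000664). SIM, a cyclin-dependent kinase inhibitor that switches cells from division to endoreduplication, rose by 2.0 (SE 0.20), with 604, 714 and 583 in darkness and 105, 174 and 194 in light. HTB1, a histone H2B, fell by 0.65 (SE 0.16) and PRL, the MCM7 subunit of the replicative helicase, by 0.49 (SE 0.14), but neither call held: HTB1 ended without line 4 (0.0658) or 7 (0.0798) and without the pairing, and PRL without line 1 (0.0828), 4 (0.105) or 7 (0.091) and with vector arrays alone (limma adjusted p in parentheses). HTB4, a brighter H2B gene, was not called (-0.01, SE 0.18).

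Of 23 redox genes tested, 10 fell and 4 rose. The share that fell is above that of all probe sets (16.5%), and the share that rose is below theirs (20.4%). The 5 largest falls were of MSRB6, a methionine sulfoxide reductase, and of plastid proteins: TRXF2 and ty2 (thioredoxins f and y), THX (thioredoxin x) and TAPX, the thylakoid ascorbate peroxidase. MSRB6 read 40.8, 30.1 and 18.5 in dark seedlings and 317, 282 and 175 in light seedlings and fell by 2.85 (SE 0.22, limma adjusted p = 0.000401). TRXF2 fell by 2.03 (SE 0.27), ty2 by 1.96 (SE 0.22), TAPX by 1.86 (SE 0.15) and THX by 1.68 (SE 0.20). Relatives that rose, picked after values were seen, were MSRB9 by 1.45 (SE 0.23) and TY1 by 0.59 (SE 0.12), so that methionine sulfoxide reductases and y-type thioredoxins each had a member in either direction. MSRB9 read 992, 1162 and 859.6 in darkness and 412, 272 and 417 in light. GR1, the cytosolic glutathione reductase, was not called (0.14, SE 0.14).

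Of 10 glutathione transferases 3 rose and 3 fell (median 0.05), beside 20.4% higher and 16.5% lower of all probe sets. GSTF4 read 203, 187 and 199 in dark seedlings and 37.1, 36.9 and 36.1 in light seedlings, a narrow spread on both sides, and rose by 2.22 (SE 0.21, limma adjusted p = 0.000733). GSTU22 rose by 2.15 (SE 0.21) and GSTU25 by 1.36 (SE 0.30). GSTU20 read 133, 53.2 and 52.4 in darkness and 1752, 229.6 and 959 in light and fell by 3.22 (SE 0.40, 9.29-fold), and GSTL3 fell by 1.24 (SE 0.17).

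The same spread in light, with line 4 low and line 1 high, was seen in BCAT4, the aminotransferase that starts methionine-derived glucosinolate synthesis. It read 39.1, 21.8 and 20.9 in dark seedlings and 1151, 94.4 and 502 in light seedlings and fell by 3.55 (SE 0.47, 11.7-fold, limma adjusted p = 0.00169). The glucosinolate transporters GTR1 and GTR2 moved apart: GTR2 rose by 0.94 (SE 0.21) and GTR1 fell by 0.79 (SE 0.20). Both calls ended without line 4 (limma adjusted p = 0.0724 and 0.102), and that of GTR1 without line 1 (0.0723). ATP sulfurylases, which activate sulfate, also divided. APS4 read 821, 1086 and 896 in darkness and 238, 334 and 386 in light and rose by 1.54 (SE 0.16), while APS3 fell by 1.48 (SE 0.27). SUFE2, which stimulates the release of sulfur from cysteine for iron-sulfur clusters (chosen after values were seen), rose by 2.29 (SE 0.36).

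In the NPF family of nitrate and peptide transporters, to which the GTR proteins belong, AT2G26690 (NPF6.2) rose by 1.61 (SE 0.35, ended without line 4, limma adjusted p = 0.0627, and 7, 0.0535). AT3G21670 (NPF6.4) fell by 1.73 (SE 0.33) and AT1G68570 (NPF3.1) by 1.30 (SE 0.24). Of 9 members 3 rose and 3 fell, and none of the rises was left without line 4 and 1 without line 7. Beside these counts stand 20.4% higher and 16.5% lower of all probe sets.

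**Figure D3:**
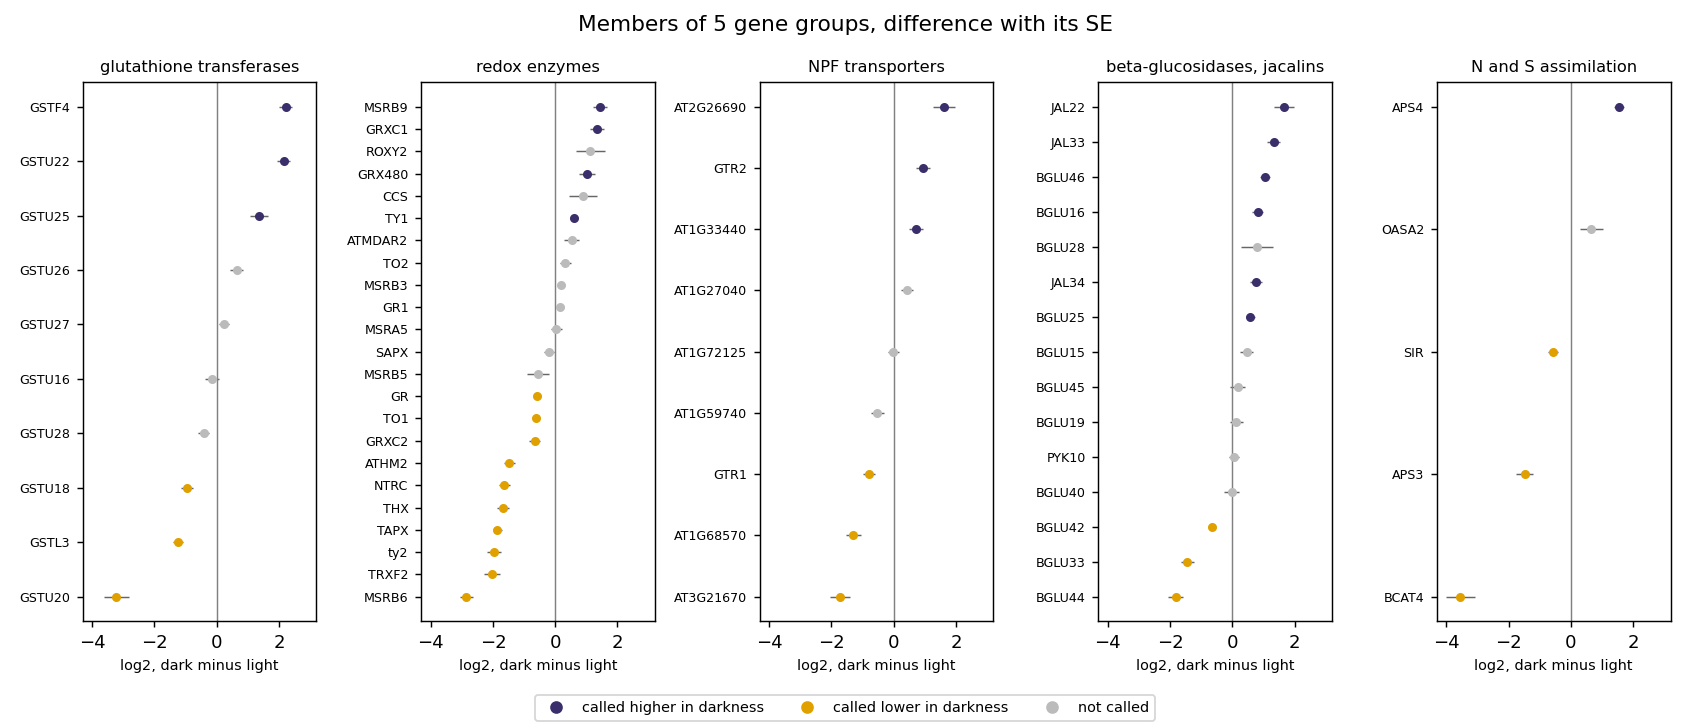
Dark minus light difference (log2 scale) of each tested member of 5 gene groups in vector seedlings, with its SE as a bar. Each group holds members called higher (dark colour) and members called lower (yellow) in darkness, with those not called in grey.

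Glycosyltransferases of the UGT family numbered 36, of which 12 rose and 6 fell (2 falls without line 4, and 3 with vector arrays alone or with no filter). The share that fell is near that of all probe sets (16.5%), and the share that rose is above theirs (20.4%). The list median was -0.17. UGT76E2 read 137, 176 and 118 in dark seedlings and 16.5, 32.3 and 13.5 in light seedlings and rose by 2.48 (SE 0.17, limma adjusted p = 0.000373). UGT73B4 rose by 1.95 (SE 0.34), UGT76B1, which glucosylates a defence-related organic acid, by 1.81 (SE 0.29) and UGT73D1 by 1.57 (SE 0.25). UGT76E11 fell by 1.99 (SE 0.46, ended without line 4, limma adjusted p = 0.0561). UGT78D1, a flavonol rhamnosyltransferase, fell by 1.53 (SE 0.32).

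Flavonoid genes, which light induces, were below 0 in all 6 members tested, and 3 fell. Falls numbered 2 with vector arrays alone, with no filter, without line 4 or without line 7. They numbered 4 without line 1, with median-centred arrays or with quantile normalization, and 1 with the 50th percentile filter. UGT78D2 fell by 1.28 (SE 0.37) with overlapping groups, and its call ended with vector arrays alone, with no filter and without line 4 or 7. CHIL, which helps chalcone synthase make the flavonoid precursor, read 34.3, 4.32 and 18.2 in darkness and 175, 101 and 151 in light and fell by 2.68 (SE 0.49, limma adjusted p = 0.00503). The anthocyanin gene UF3GT had a difference of -0.39 (SE 0.17), not called, with overlapping groups. Phenylpropanoid genes leaned the other way, with 3 of 6 rising (1 without line 4 or without line 7): CCOAMT, annotated as a caffeoyl-CoA O-methyltransferase, read 155, 348 and 147 in darkness and 40.7, 44.3 and 27.1 in light and rose by 2.24 (SE 0.35). CCR2, cinnamoyl-CoA reductase, rose by 1.01 (SE 0.25), ending without line 4 (limma adjusted p = 0.093) or 7 (0.0861).

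Of 20 defence proteins tested 2 rose and 3 fell (5 fell without line 7), shares at or below those of all probe sets (20.4% higher and 16.5% lower). THI2.2, a thionin, which is a small antimicrobial peptide, read 15.6, 7.45 and 3.71 in dark seedlings and 459, 335 and 173 in light seedlings and fell by 4.33 (SE 0.47, limma adjusted p = 0.000909). ECS1 read 62.5, 28.4 and 61.6 in darkness and 1710, 1166 and 639.9 in light and fell by 4.30 (SE 0.64). In the other direction CHI, annotated as a putative chitinase, rose by 2.53 (SE 0.28) and OSM34, an osmotin, by 1.84 (SE 0.24), the values of OSM34 being 1352, 1784 and 1248 in darkness and 567, 388 and 289 in light. The bright defensin-like genes LCR68 (-0.01, SE 0.17) and LCR69 (-0.06, SE 0.16) were not called.

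Some jacalin lectins and beta-glucosidases are parts of the endoplasmic reticulum body defence system of the crucifers. The list of both families had 6 rises and 3 falls among 15 (3 rises without line 4). Of all probe sets 20.4% were called higher and 16.5% lower. JAL22 read 1890, 2705 and 1947 in dark seedlings and 1076, 453 and 621 in light seedlings and rose by 1.67 (SE 0.32), and JAL33 rose by 1.33 (SE 0.20). BGLU44 fell by 1.81 (SE 0.24) and BGLU33 by 1.45 (SE 0.21). PYK10, the major beta-glucosidase of those bodies and a root-enriched gene, was bright in both groups, which overlapped: 4194, 5010 and 4264 in darkness and 4671, 4219 and 4122 in light (0.05, SE 0.15, not called).

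Iron, respiration and surface genes gave isolated calls. BHLH101, a transcription factor induced by iron shortage, read 2.95, 8.47 and 1.57 in dark seedlings and 44.1, 115 and 32.5 in light seedlings and fell by 2.52 (SE 0.53), but its call ended without line 4 (limma adjusted p = 0.055). Of alternative NAD(P)H dehydrogenases NDC1, found in plastids and mitochondria, fell by 1.17 (SE 0.16). NDB2, of the outer face of the mitochondrial inner membrane, rose by 1.11 (SE 0.32), but not without line 4 (adjusted p = 0.159), line 7 (0.12) or with vector arrays alone. AT4G13840, listed as CER26 of wax elongation, fell by 2.03 (SE 0.22), with 75.8, 38.8 and 54.2 in darkness and 209, 207 and 338 in light.

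Markers of organs and cell types were few, and they are given because the organs of dark and light seedlings differ in size. FMA (FAMA), of guard cell formation, read 29.4, 36.5 and 31.9 in dark seedlings and 54.3, 87.8 and 76.9 in light seedlings and fell by 1.0 (SE 0.15, limma adjusted p = 0.00242). YAB5, a gene of the leaf underside, read 35, 35.2 and 35.9 in darkness and 68.8, 97 and 114 in light and fell by 1.21 (SE 0.18). The shoot meristem and leaf primordia list, which holds YAB5, had 1 rise and 1 fall among 5 members, with differences from -1.21 to 0.99. No rise was left without line 4 or without line 7, and 2 fell without line 1. YAB3 (-0.37, SE 0.17) and PHV (0.15, SE 0.16), of leaf polarity, and STOMAGEN (-0.55, SE 0.36), a peptide of mesophyll cells that promotes stomata, were not called. Of 3 root and root hair genes tested EXPA7 alone fell (2 fell with median-centred arrays). No vascular or aquaporin gene was tested under a name. Whether organ proportions move with the gene groups above was not tested.

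Among the other families, whose counts are read beside 20.4% higher and 16.5% lower of all probe sets, serine carboxypeptidase-like genes had 4 rises and 2 falls in 16, cytochromes P450 of the lists 5 rises and 3 falls in 11, and trichome birefringence-like genes, which acetylate wall polysaccharides, 4 rises and 1 fall in 18. TBL38 rose by 1.84 (SE 0.30) and TBL45 fell by 1.49 (SE 0.21). CYP71B23 rose by 1.09 (SE 0.18), and CYP84A4, of pyrone synthesis, by 0.92 (SE 0.15). The largest change among the P450s was the fall of CYP71B26 by 2.19 (SE 0.59). It read 43.6, 28.0 and 34.4 in darkness and 334, 334 and 52.6 in light. Its call ended without line 1 or 4 (limma adjusted p = 0.0952 and 0.127). Without line 4 there were 2 rises among the carboxypeptidases, 2 rises and 0 falls among the P450s and 1 rise among the birefringence-like genes. Without line 1 the P450s had 3 rises and 1 fall, and without line 7 the birefringence-like genes had 2 rises.

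Several of the large differences belonged to loci for which the tables give a code alone, and no role is stated for them. AT1G23130 read 19.2, 2.52 and 43 in dark seedlings and 1419, 1305 and 1687 in light seedlings, a fall of 5.98 (SE 0.39, limma adjusted p = 0.000358). AT5G44440 read 1289, 1543 and 699 in darkness and 3.12, 24.9 and 14.4 in light and rose by 5.88 (SE 0.61). AT1G70820 was at 2.25, 1.45 and 2.22 in darkness, near the bottom of the range, and at 514, 602 and 256 in light, a fall of 5.61 (SE 0.33). In AT1G23130 and AT1G70820 every light array was bright and every dark array dim. The sizes and their order depend on the pseudocount, since 1 side is at the bottom of the range: with a pseudocount of 32 the differences were -4.87 for AT1G23130, 4.67 for AT5G44440 and -3.77 for AT1G70820. Other large rises were those of AT1G30760 by 4.89 (SE 0.44), AT1G19530 by 4.79 (SE 0.24), AT4G37220 by 4.63 (SE 0.33) and AT4G11190 by 4.58 (SE 0.86). AT4G11190 was the more variable, with 128, 3.23 and 76.4 in light. AT3G05730 fell by 4.45 (SE 0.40), and AT1G22690 fell by 3.91 (SE 0.36).

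The dark response was then set beside that of MIF1OE seedlings. Of the 5873 probe sets called in vector seedlings, 5404 (92.0%) had the same sign of dark minus light in MIF1OE seedlings. The difference between the responses, MIF1OE minus vector, was called for 208 of 15922 probe sets (1.31%), 120 above 0 (0.754%) and 88 below (0.553%). Of these, 141 were also called in vector seedlings, and in 88 of the 141 the MIF1OE response had the opposite sign. In 96 of the 141, some of them among those 88, it was the smaller in size. The vector values enter both calls, so the counts among the 141 depend in part on how these probe sets were picked. Without the pairing 120 were called, and without vector lines 1, 4 and 7 the counts were 84, 136 and 72.

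Of the genes named here 10 differed. Named genes were picked largely by their vector change, which enters this difference, so its direction is partly set by that choice. The calls of AT3G48970 and UGT76E2 held in every alternative in which the difference was tested. Those of AT4G37220 and ATPMEPCRD ended without line 7 (limma adjusted p = 0.0505 and 0.0513), that of AT1G23130 without line 1 (0.0581), and those of HRGP1 and AT1G19530 without the pairing (0.0516 and 0.106). The call of PDF2.5 ended without line 1 (0.0675) or 7 (0.0634), and that of EXPA7 without line 1 (0.0938) or 7 (0.0864) and with no filter (0.0611). AT4G35720 lost its call when any vector line was left out (0.066, 0.101 and 0.0984 without lines 1, 4 and 7), with a pseudocount of 1 and with no filter. AT4G37220 read 85.2, 86.9 and 65.8 in dark and 57.7, 67.5 and 29.6 in light MIF1OE seedlings, against 747, 2358 and 1213 in dark and 60.4, 54 and 28.2 in light vector seedlings. Its dark response was 0.61 (SE 0.33) in MIF1OE and 4.63 (SE 0.33) in vector seedlings (limma adjusted p of the difference = 0.0148). The rise in darkness was likewise the smaller in MIF1OE for AT3G48970 (0.66 in MIF1OE, 3.60 in vector), UGT76E2 (0.27 and 2.48), ATPMEPCRD (2.28 and 4.97), AT1G19530 (2.01 and 4.79) and AT4G35720 (1.22 and 3.71). ATPMEPCRD read 239, 232 and 239.7 in dark and 36.8, 44.6 and 49.7 in light MIF1OE seedlings, so the gene was also high in darkness there.

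Among falls, AT1G23130 differed by -1.79 in MIF1OE and -5.98 in vector seedlings. EXPA7, PDF2.5 and HRGP1 had opposite signs in the genotypes. EXPA7 read 36.2, 69.5 and 81.2 in dark and 39, 52.8 and 38.1 in light MIF1OE seedlings, a difference of 0.41 (SE 0.23), against -1.60 (SE 0.23) in vector seedlings (limma adjusted p of the difference = 0.0339). PDF2.5, a plant defensin, differed by 1.05 (SE 0.21) in MIF1OE and -1.09 (SE 0.21) in vector seedlings (adjusted p = 0.0219). HRGP1, a hydroxyproline-rich wall protein, differed by 1.62 (SE 0.13) and -1.0 (SE 0.13) (adjusted p = 0.00294). Its probe set is marked by the array design as able to bind related transcripts, and its vector call ended without the pairing, with overlapping dark (103, 125 and 63.2) and light (206, 287 and 124) vector values.

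**Figure D4:**
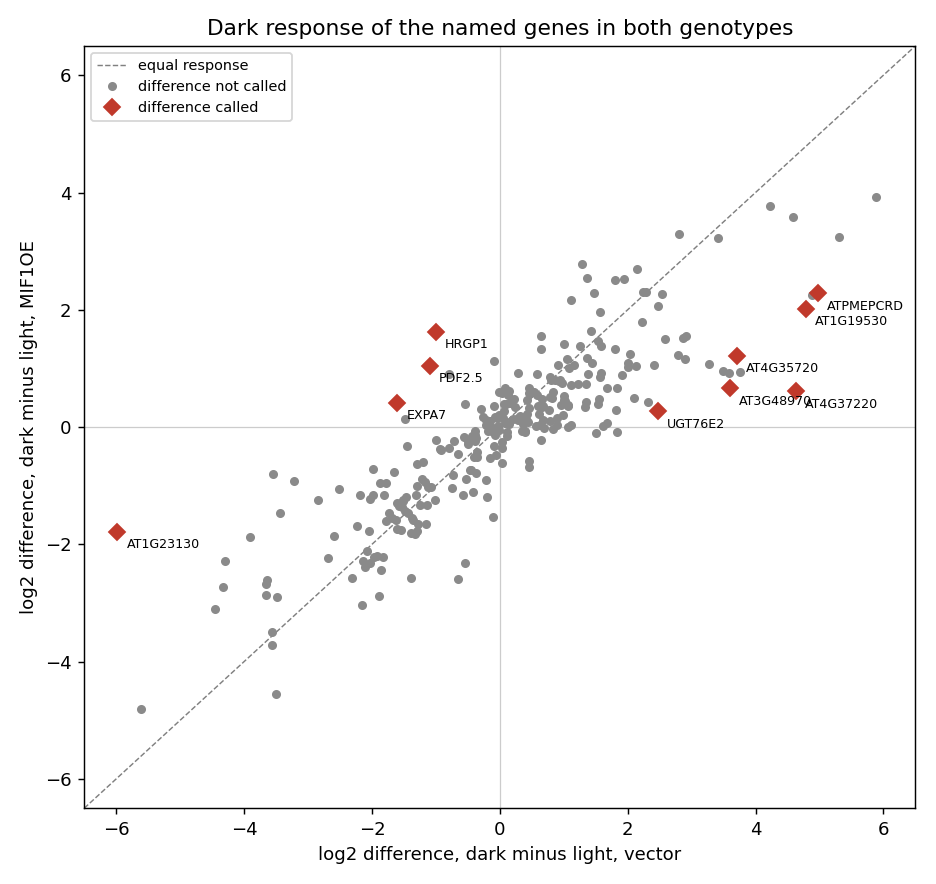
Dark minus light difference (log2 scale) in MIF1OE seedlings (vertical) against the same in vector seedlings (horizontal) for the named genes, 1 point per gene, with the line of equal response dashed. Red diamonds with names are the 10 genes whose responses were called different, and grey points are the rest.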

How the data were processed

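Biotin-labelled cRNA of seedlings was hybridised to Affymetrix ATH1 arrays, per the labels' protocols. Per the submitters' processing notes the authors used GCOS (version not given in the sources used) and deposited 1 linear intensity per probe set. The mean trimmed by 2% was 150.01 on every vector array, and this scaling was kept. On arrays, their number limits the precision.

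Intensities were transformed to log2(value + 7). The 64 control probe sets and the 6824 of 22746 below the 30th percentile of mean intensity were left out. limma 3.58.1 (R 4.3.3) was fitted to all 12 arrays with plant source as a block (4 residual and 3.72 prior degrees of freedom). The pairing comes from the vector line in the labels. Deviations from group means correlated at 0.262, 0.241 and 0.325 within lines 1, 4 and 7, and from -0.302 to 0.028 between lines. On simulated data for this comparison (15922 probe sets), 95 were changed 2-fold and 105 4-fold. Of these, 74.7% of 2-fold and 98.1% of 4-fold changes were recovered, with 8 false calls. Far fewer probe sets were changed there than were called in the data (36.9%), so these percentages do not give the recovery in the data.

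Genes were named from the platform annotation through RefSeq (assembly TAIR10.1). Of 22746 probe sets 13513 named 1 gene (13436 matched), 503 several and 8730 none. In the lists a gene was represented by its brightest probe set. Among the largest rises and falls, and annotated genes chosen for their large change, the probe set of larger change was used. The comparison and the 50 gene lists were chosen with earlier results of these data known. Named genes are the 15 largest called rises and falls without overlap, and per list up to 5 called members by size and 2 not called by brightness. Others are said to be chosen after values were seen. Promoter motifs were not analysed here. Alternatives covered the pairing, arrays fitted, pseudocount (1 and 32), filter (none and 50th percentile), scaling (median and quantile), a floor of 16, an intensity trend, and each line left out.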

Additional observations from a re-analysis of the deposited data

Results flagged for a closer look

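For 10 genes the dark response differed between genotypes by a test of the difference itself (MIF1OE minus vector, limma adjusted p under 0.05 over all probe sets). The difference was -4.01 for AT4G37220 (SE 0.47), -2.94 for AT3G48970 (SE 0.26), -2.79 for AT1G19530 (SE 0.34), -2.69 for ATPMEPCRD (SE 0.36), -2.50 for AT4G35720 (SE 0.42) and -2.21 for UGT76E2 (SE 0.25). All 6 are genes that rose in darkness in vector seedlings. Positive differences were 4.20 for AT1G23130 (SE 0.55), 2.62 for HRGP1 (SE 0.18), 2.13 for PDF2.5 (SE 0.30) and 2.01 for EXPA7 (SE 0.33), all of which fell in vector seedlings. This split of signs is partly set by the choice of genes. They were picked largely by the size of their vector change, which is subtracted in the difference. In 8 of the 10 the call ended in at least 1 alternative, AT3G48970 and UGT76E2 being the exceptions. The MIF1OE arrays come from 2 lines, of which line 124 gave 2 of the 3 samples, and no cause of these differences was tested.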

How the results depend on the processing

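All 13 alternatives were run. The 5873 calls became 4880 without the replicate block, 4659 with vector arrays alone, and between 3172 and 5125 when a vector line was left out (1658 to 2863 higher and 1514 to 2262 lower). Calls of a different response in MIF1OE (208, of which 120 above 0 and 88 below) were 120 without the replicate block (70 above 0, 50 below) and 132 with the 50th percentile filter (57 above 0). Leaving out a vector line gave 72 to 136 such calls (36 to 91 above 0 and 36 to 48 below). Each of these leaves 2 vector pairs.

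Of 277 named genes 193 were called, 146 of them in every alternative, and none of the 193 changed sign. Of the 84 not called, 31 changed sign in some alternative, with differences of at most 0.65, and 20 passed in some. The share of calls higher in darkness was 55.3%, and 46.8% with median-centred arrays. Dim genes limit what can be said: no detection calls were used, and values under about 16 lie near the bottom of the range.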
